A study of Mus musculus with 2 samples.

Results

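The miR-30 family of the mouse consists of 6 hairpin precursors, Mir30a, Mir30b, Mir30c-1, Mir30c-2, Mir30d and Mir30e. They were taken by name from the 1174 miRNA hairpins of the GENCODE annotation (genome build GRCm38) that were searched. A read was counted for the family when its sequence occurred without mismatch in any of the 6 hairpins. The hairpins gave 11 mature arms out of 1147 arms with reads, because the 5p arms of Mir30c-1 and Mir30c-2 have the same sequence and were counted together as miR-30c-5p. J1 cells, a mouse embryonic stem (ES) cell line, were grown on gelatin with LIF and were given AICAR at 1 mM or DMSO, its solvent, in the same volume. AICAR enters cells and activates AMPK, the AMP-activated protein kinase, an enzyme that responds to low cellular energy. Small RNA was sequenced after 24 h, and the comparison asks which miRNAs differ in level between the AICAR and the DMSO cells. The medium held serum replacement by the labels, whereas a figure legend of the study names serum. The title of the control library, J1_U, does not name DMSO, but its treatment label does.

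Each condition had 1 library. No spread between cultures could be estimated, no p-value is given, and the 95% intervals cover the counting error of reads, which are PCR copies and not independent molecules. The DMSO library held 18870345 clean reads and the AICAR library 21091226. Reads on any miRNA hairpin were 11.6% and 15.7% of these, and 9.49% and 3.81% of the hairpin reads were shorter than 21 nt. The miR-290 and miR-302 hairpins listed as ES cell markers, 11 of the 12 listed, took 27.2% of the hairpin reads in DMSO and 34.7% in AICAR. Nearly all of these were miR-290 reads, 592374 and 1150446, since the miR-302 hairpins had 286 reads in DMSO and 118 in AICAR. That is 0.0131% and 0.00356% of the hairpin reads, and the study describes miR-302 as abundant in human ES cells. Neural hairpins took 0.241% and 0.273%, and muscle hairpins 0.139% and 0.130%. Fibroblast hairpins took 0.0799% and 0.0582%, and blood hairpins 0.0279% and 0.0170%, with no read of Mir214 or Mir223. Relative to clean reads, muscle hairpins were instead higher with AICAR, from 3031 reads in DMSO and 4315 in AICAR. Most neural reads were of miR-124a-3p, 4815 and 8584, whereas miR-9-5p had 301 and 293. Most muscle reads were of miR-1a-3p, 2966 and 4270, whereas miR-206-3p had 59 and 34. The part of these differences in the miR-30 values was not tested, and fewer cells of a type cannot be told apart from less RNA per cell.

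A miRNA hairpin is cut by Drosha and Dicer into a short duplex, and each strand of it is called an arm, 5p or 3p. The arm that is kept in an Argonaute protein guides it to messenger RNAs, whereas the other arm, the passenger, is mostly lost. Pairing with the target rests on the seed, bases 2 to 8 of the arm. In the miR-30 family the 5p arms share a seed and are known as guides, so that they can act on a common set of targets. The family is abundant in many differentiated tissues and is known for targets such as Snai1, a transcription factor of epithelial-mesenchymal transition, and Becn1, a protein of autophagy.

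Mature sequences from RefSeq (GRCm38.p6) were matched for 4 of the 6 hairpins and 7 of the 11 arms. They are shown 5′ to 3′ with the seed in capitals, since the arms fall into groups by seed, and the bases after the seed tell the members of a group apart. The 5p arms come first, followed by the 3p arms.
miR-30a-5p: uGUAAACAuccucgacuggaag
miR-30c-5p: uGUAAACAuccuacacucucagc
miR-30e-5p: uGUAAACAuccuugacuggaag
miR-30a-3p: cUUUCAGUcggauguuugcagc
miR-30e-3p: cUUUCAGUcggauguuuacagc
miR-30c-1-3p: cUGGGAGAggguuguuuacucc
miR-30c-2-3p: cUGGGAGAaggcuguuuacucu
In the deposited tags all 5 miR-30 5p arms carried the seed GTAAACA, miR-30b-5p and miR-30d-5p included. The miR-30 3p arms held 3 seeds. TTTCAGT was shared by miR-30a-3p, miR-30d-3p and miR-30e-3p, TGGGAGA by miR-30c-1-3p and miR-30c-2-3p, and TGGGATG was found in miR-30b-3p. Positions being counted from 1 at the 5′ end, miR-30a-5p and miR-30e-5p differed by C13T, and their 3p arms by G18A, with the base of miR-30a given before the position. All 5 miR-30 5p arms began with T and all 6 miR-30 3p arms with C. Over all arms tested, 39.9% of 5p arms began with T and 18.6% of 3p arms began with C.

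The 6 hairpins lie as 3 pairs, each pair on the same strand. Mir30a (chr1:23272269-23272339, plus strand) overlaps no other annotated gene, and Mir30c-2 (chr1:23291701-23291784, plus strand) lies 19361 bases further on, where it overlaps an exon of Gm27028, a lincRNA. Mir30c-1 (chr4:120769534-120769622, minus strand) and Mir30e (chr4:120772606-120772697, minus strand) are both in introns of Nfyc, which encodes a subunit of the transcription factor NF-Y, and are separated by 2983 bases. Mir30b (chr15:68337415-68337510, minus strand) overlaps an exon of the non-coding transcript Gm26621. Mir30d (chr15:68341208-68341289, minus strand) overlaps exons of Gm20732, a lincRNA, and of Gm37296. Between Mir30d and Mir30b are 3697 bases. Thus the copies of miR-30c are on separate chromosomes and can be told apart by their 3p arms only. The reference tags of the arms occurred in no annotated transcript outside these loci.

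The family gave 14004 reads with DMSO and 20370 with AICAR, or 742 and 966 reads per 1000000 clean reads (RPM). The fold change, AICAR over DMSO, was 1.30 (95% interval 1.27 to 1.33). As a share of all hairpin reads the family was slightly lower with AICAR, 0.615% (0.606 to 0.623) against 0.642% (0.632 to 0.653), which is a fold change of 0.957 (0.937 to 0.978). The direction for the whole family therefore depends on the denominator. Over the 510 arms that reached 1 RPM in either library, the median fold change was 1.10 with clean reads as denominator and 0.807 with hairpin reads, a shift of −0.44 on the log2 scale. The shift was −0.10 with TMM scaling and −0.13 with median-ratio scaling. The fold change was above 1 in 56.9% of these arms with clean reads, in 31% with hairpin reads, in 51.6% with TMM and in 50% with median-ratio scaling. A comparison with the median arm, or between miR-30 arms, is the same under each of these denominators.

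miR-30d-5p and miR-30a-5p were the most abundant members in both libraries. They were followed by miR-30e-5p and miR-30c-5p, and miR-30b-5p was the least read of the 5p arms of the family. miR-30d-5p had 330 RPM in DMSO and 396 RPM in AICAR, which placed it at ranks 50 and 54 of all arms. miR-30a-5p had 224 and 335 RPM, at ranks 68 and 59. The counting intervals of these neighbours did not overlap in either library, so their order is not set by counting error. miR-30e-5p had 70.8 and 92.1 RPM, and miR-30c-5p had 30.9 and 58.1 RPM. miR-30b-5p had 3.97 and 6.69 RPM, from 75 and 141 reads. The miR-30 5p arms thus spanned more than an order of magnitude, although their seeds are identical. In total these arms had 659 RPM in DMSO and 888 RPM in AICAR.

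**Figure D1:**
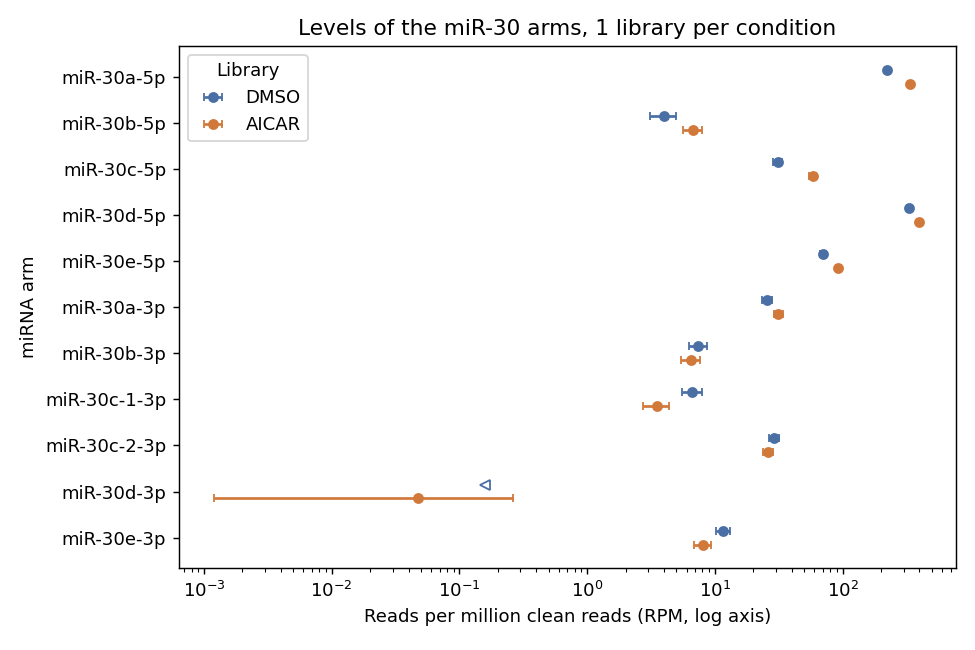
Level of each miR-30 arm (vertical axis) in RPM of clean reads (horizontal log axis), with 1 library per condition and bars for the 95% counting interval. The open triangle marks the limit of 3 reads for miR-30d-3p in DMSO, which had no read. The 5p arms miR-30d-5p and miR-30a-5p lie above 200 RPM, and the 3p arms lie below 35 RPM. All 5p arms lie further right with AICAR on this scale, but relative to hairpin reads miR-30d-5p and miR-30e-5p were lower.

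All 5 miR-30 5p arms had more RPM in AICAR, and miR-30c-5p differed most, though miR-30d-5p and miR-30e-5p were lower relative to hairpin reads. miR-30c-5p had a fold change of 1.88 (1.70 to 2.08), from 584 and 1226 reads. miR-30b-5p had a fold change of 1.68 (1.26 to 2.26). miR-30a-5p had a fold change of 1.50 (1.44 to 1.56), from 4218 and 7067 reads. These 3 arms were above 1 under all 4 denominators, at 1.38, 1.24 and 1.10 relative to hairpin reads, although the interval of miR-30b-5p then included 1 (0.928 to 1.66). The fold changes of miR-30e-5p and miR-30d-5p were smaller, 1.30 (1.21 to 1.40) and 1.20 (1.16 to 1.24). Relative to hairpin reads they fell under 1, at 0.957 (0.892 to 1.03) and 0.884 (0.856 to 0.914), the latter interval wholly below 1. With clean reads as denominator, the interval was wholly above 1 for 5 of 5 miR-30 5p arms, against 41% of the 273 5p arms tested. Whether an interval excludes 1 also depends on the number of reads, and arms were not matched by depth, here or below. The point value was above 1 for 60.8% of the 273 5p arms. Each of the 5 was also above the median arm, whatever the denominator, and miR-30c-5p was above 86.3% of all arms.

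The miR-30 3p arms did not share this direction. miR-30a-3p had 25.4 RPM in DMSO and 31.4 RPM in AICAR, a fold change of 1.24 (1.10 to 1.39) that became 0.909 relative to hairpin reads. It was the only 1 of the 5 miR-30 3p arms tested that was above the median arm. miR-30c-1-3p had the lowest fold change of the miR-30 arms tested, with 125 and 74 reads, 6.62 and 3.51 RPM, and a fold change of 0.530 (0.392 to 0.712). miR-30e-3p had 11.6 and 8.01 RPM and a fold change of 0.690 (0.562 to 0.848). Both intervals were below 1, and the values were below 1 under all 4 denominators. miR-30c-2-3p had 29.1 and 26.1 RPM, with a fold change of 0.896 (0.795 to 1.01). miR-30b-3p had 7.42 and 6.50 RPM, with a fold change of 0.876 (0.687 to 1.12). With clean reads as denominator, no difference of these arms was detectable at this depth. For miR-30c-2-3p the interval was wholly below 1 with TMM (0.743 to 0.944), median-ratio scaling (0.724 to 0.921) and hairpin reads (0.585 to 0.743). For miR-30b-3p it was so with hairpin reads (0.505 to 0.821) but not with TMM (0.642 to 1.04) or median-ratio scaling (0.626 to 1.02). The interval was wholly below 1 for 2 of 5 miR-30 3p arms, against 32.1% of the 237 3p arms tested, and the value was below 1 for 4 of 5, against 47.7%. Over 5p and 3p arms together, 38.6% had an interval wholly above 1 and 27.1% wholly below. miR-30d-3p was not tested, having no read in DMSO and 1 read in AICAR. The 10 arms tested passed the minimum of 1 RPM in each library, so that none entered through 1 library alone. No miR-30 arm reached a fold change of 2, which 12% of all arms did, or of 0.5 or less, which 10.2% did. Relative to hairpin reads, TMM or median-ratio scaling, miR-30c-1-3p passed the lower limit, at 0.390, 0.495 and 0.483. These denominators multiply every fold change by 0.735, 0.934 and 0.911, and the share of all arms that then passed was not counted.

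**Figure D2:**
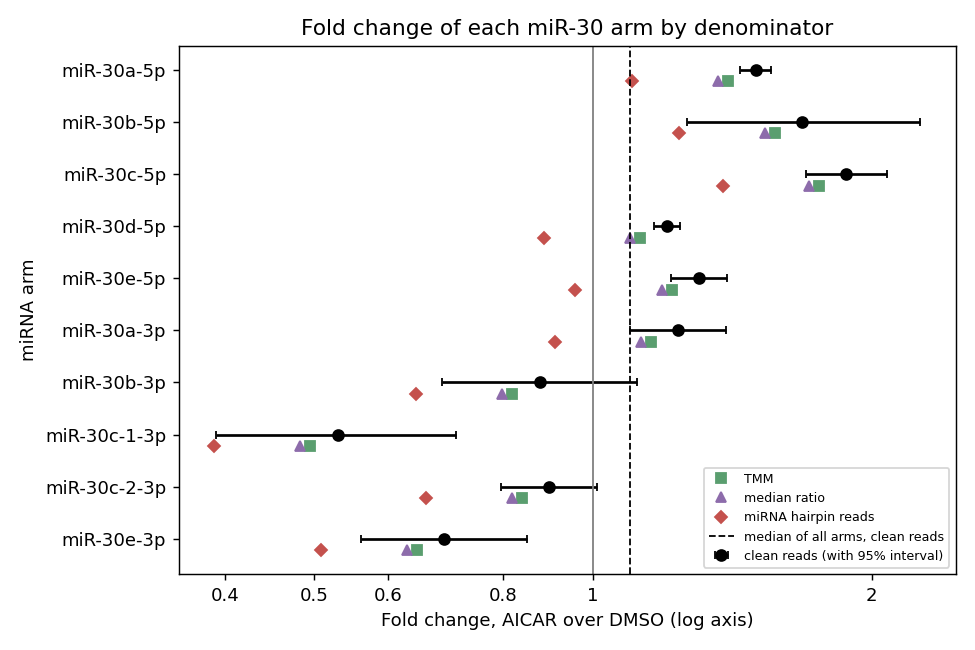
Fold change of each tested miR-30 arm (vertical axis), AICAR over DMSO, on a log axis. Black points are relative to clean reads with the 95% counting interval, coloured symbols are the other 3 denominators, and the dashed line is the median of all 510 arms with clean reads. With clean reads, all 5p arms lie right of the dashed line, and of the 3p arms miR-30a-3p alone does. Relative to hairpin reads, miR-30d-5p, miR-30e-5p and miR-30a-3p lie left of 1.

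Since both arms come from the same hairpin, the share of the 3p arm in its reads needs no scaling between the libraries. This share was lower with AICAR in each hairpin with enough reads of both arms. For Mir30e it was 14.1% (12.4 to 15.9) in DMSO and 8.0% (6.92 to 9.24) in AICAR, an odds ratio of 0.531 (0.426 to 0.660). For Mir30b it was 65.1% (58.5 to 71.2) and 49.3% (43.5 to 55.1), an odds ratio of 0.521 (0.355 to 0.763). Mir30b was thus read mostly from its 3p arm in DMSO and about equally from both arms in AICAR. The Mir30c hairpins together had 53.6% (50.8 to 56.3) and 33.7% (31.6 to 35.9) of their reads in the 3p arms, an odds ratio of 0.441 (0.380 to 0.512). The 3p arms thus had the larger share in DMSO and the smaller in AICAR, but under each of the 5 other tag assignments tried the 5p arm already had more reads in DMSO. With tailed tags counted, for example, the DMSO library had 773 reads of the 5p arm and 690 of the 3p arms, a 3p share of 47.2% (44.6 to 49.7), and with reference tags alone the share was 39.8% (36.4 to 43.3). For Mir30a the difference was smaller, 10.2% (9.38 to 11.1) against 8.58% (7.97 to 9.22), with an odds ratio of 0.824 (0.727 to 0.935). When tags with untemplated 3′ bases were also counted, the Mir30a odds ratio was 0.907 and its interval reached 1 (0.822 to 1.00).

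Mir30d was read almost wholly from the 5p arm. It gave 0 of 6222 reads from 3p in DMSO, with a Wilson interval that reached 0.0617%, and 1 of 8363 in AICAR, or 0.0120% (Wilson interval 0.00211 to 0.0677). Its 3p share could not be compared. The odds interval was wholly below 1 for the 4 units that could be compared, Mir30a, Mir30b, Mir30c and Mir30e. This was so for 32.9% of the 161 hairpins with both arms tested, and 23.6% had an interval wholly above 1. The odds ratio itself was below 1 in 54% of the 161. That set includes the miR-30 hairpins, with Mir30c-1 and Mir30c-2 entered separately, each against all miR-30c-5p reads. Over these hairpins the median odds ratio of the 3p arm was 0.945, and it was 0.866 in the 78 hairpins led by the 5p arm. For the family as a whole the 3p share was 10.8% (10.3 to 11.4) in DMSO and 7.84% (7.48 to 8.22) in AICAR.

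**Figure D3:**
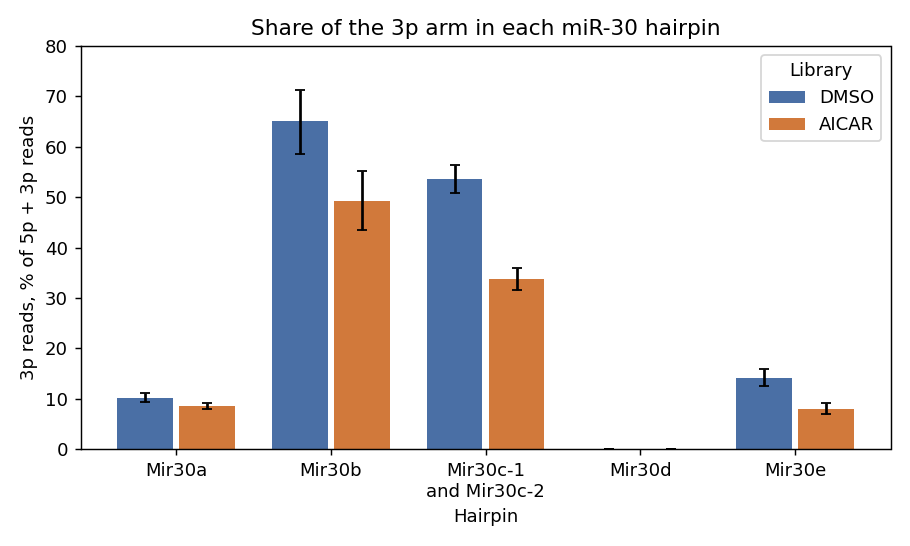
Share of 3p reads among the 5p and 3p reads of each miR-30 hairpin (vertical axis, %), with bars from 0, 1 library per condition and whiskers for the 95% Wilson interval. The AICAR bar is lower for Mir30a, Mir30b, Mir30c-1 with Mir30c-2, and Mir30e, while Mir30d has 1 read of its 3p arm in all.

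The copies of miR-30c also differed from each other. Of the 3p reads of both copies, Mir30c-1 gave 18.5% (15.8 to 21.7) in DMSO and 11.9% (9.55 to 14.6) in AICAR, so that Mir30c-2 was the main source of 3p reads in both libraries. Set against all miR-30c-5p reads, the 3p odds ratio was 0.282 (0.205 to 0.386) for Mir30c-1 and 0.477 (0.408 to 0.558) for Mir30c-2. How the 5p reads divide between the copies cannot be told apart. By locus, the 3p reads of Mir30c-1 and Mir30e in Nfyc had a fold change of 0.632 (0.534 to 0.747). The value was 1.05 (0.970 to 1.15) for Mir30a and Mir30c-2 on chromosome 1, and 0.882 (0.692 to 1.12) for Mir30b and Mir30d on chromosome 15. The chromosome 1 value pools miR-30a-3p at 1.24 (1.10 to 1.39) and miR-30c-2-3p at 0.896 (0.795 to 1.01), whose intervals do not overlap. The chromosome 15 value rests on miR-30b-3p, since miR-30d-3p had 1 read in all. The interval of the Nfyc pair lay below that of the chromosome 1 pair and overlapped that of the chromosome 15 pair. With miR-30c-5p counted for both copies, the hairpins in Nfyc had 5p arms above the median arm and 3p arms below it, and so had Mir30b and Mir30c-2. The share of all hairpins with this pattern was not counted. Over all arms tested, the median fold change was 1.14 for the 273 5p arms and 1.03 for the 237 3p arms.

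The make-up of the 5p arms differed between the libraries. miR-30d-5p was 50.0% (49.2 to 50.9) of the 5p reads in DMSO and 44.6% (43.9 to 45.3) in AICAR. miR-30a-5p was 33.9% (33.1 to 34.8) and 37.7% (37.0 to 38.4), and miR-30c-5p was 4.70% (4.34 to 5.08) and 6.54% (6.20 to 6.91). The intervals of these 3 arms did not overlap, with the lower share of miR-30d-5p set against higher shares of miR-30a-5p and miR-30c-5p. The shares themselves depend on the tags counted. From the most-read tag of each arm alone, miR-30d-5p was 58.9% and 49.8%, miR-30a-5p 22.7% and 29.0%, and miR-30c-5p 5.94% and 8.21%. The direction of each of the 3 was the same under every tag assignment tried. With all assigned tags, miR-30e-5p had nearly the same share, 10.7% (10.2 to 11.3) and 10.4% (9.94 to 10.8). miR-30b-5p had 0.603% (0.481 to 0.755) and 0.752% (0.638 to 0.887), with overlapping intervals.

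Members of the family differ at few bases, so that misread tags could move reads between them. Tags with 1 substitution relative to the leading tag of a 5p arm, other members left out, came to 0.503% to 1.28% of the reads of both together. A single substitution had at most 19 reads, a count reached by C10T in miR-30a-5p, or 0.358%, and by a substitution in miR-30d-5p, or 0.178%. The highest share was 0.505% in miR-30b-5p, from 1 read. The shares of single substitutions are relative to the leading tag alone. Most of the possible substitutions had no read. The leading tag of miR-30e-5p, which is 1 base away from that of miR-30a-5p, had 907 reads in DMSO and 1440 in AICAR, well above this level. A single tag of 18 nt was shared by Mir30b and both Mir30c hairpins, with 2 reads in DMSO and 1 in AICAR, and by its end it was counted for miR-30b-5p.

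The tags read most often were not always the RefSeq forms. They are shown with their seed in capitals, because the start of a tag sets its seed.
miR-30a-5p, leading tag: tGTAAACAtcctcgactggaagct
miR-30e-5p, leading tag: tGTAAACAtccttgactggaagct
miR-30c-5p, leading tag: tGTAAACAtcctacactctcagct
miR-30a-3p, leading tag: cTTTCAGTcggatgtttgcagc
miR-30a-3p, shifted start: tTTCAGTCggatgtttgcagc
miR-30c-2-3p, leading tag: cTGGGAGAaggctgtttactc
The leading tags of miR-30a-5p and miR-30e-5p had 24 nt, 2 more than the RefSeq form. For miR-30a-5p the 24-nt tag had 1769 reads in DMSO and 3540 in AICAR, and the 22-nt RefSeq form had 490 and 681. miR-30c-5p was also led by a tag of 24 nt, with 462 and 1001 reads. In miR-30c-1-3p and miR-30c-2-3p the leading tags were shorter than RefSeq, by 2 and 1 nt.

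The 5′ ends of the 5p arms were nearly fixed, whereas miR-30a-3p had a pair of starts. Tags that began at the first base of the leading tag were 96.6% of miR-30e-5p reads in DMSO and 98.3% in AICAR, and 99.8% of miR-30d-5p reads in both. In miR-30a-3p, 38.8% (34.5 to 43.2) of the reads in DMSO and 43.6% (39.9 to 47.4) in AICAR began 1 base downstream, and these intervals overlap. The shifted tag shown above had 131 and 236 reads, and the unshifted tag 195 and 257. The shift replaces the seed TTTCAGT by TTCAGTC. In miR-30e-3p, which differs from it by 1 base at position 18, the same shift was seen in 12.3% (8.61 to 17.3) and 11.8% (7.79 to 17.6), below the intervals of miR-30a-3p. In miR-30c-2-3p the shifted share was 15.7% (12.9 to 18.9) in DMSO and 8.73% (6.65 to 11.4) in AICAR, with intervals that do not overlap. Its most-read shifted tag had 20 nt, with 48 and 17 reads. Reads of this arm shorter than 21 nt were 28.6% in DMSO and 16.2% in AICAR. The part of tag length in the shifted share was not tested, and the share over all arms is not given here.

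At the 3′ end most arms had more full-length tags in the AICAR library, as most miRNAs had. Tags reaching the end of the leading tag were 42.9% (41.4 to 44.4) of miR-30a-5p reads in DMSO and 51.0% (49.8 to 52.1) in AICAR, an odds ratio of 1.39 (1.28 to 1.50). In miR-30b-3p they were 73.6% (65.7 to 80.2) and 87.6% (81.0 to 92.1), an odds ratio of 2.53. miR-30d-5p did not share this, with 73.9% and 72.9% and an odds ratio of 0.953 (0.884 to 1.03). miR-30e-3p also had fewer full-length tags in AICAR, 74.0% against 76.7%, with an odds ratio of 0.863 (0.528 to 1.41). Over the 504 arms that could be compared, the odds ratio was above 1 in 79.2% and its interval wholly above 1 in 36.1%, with a median of 1.43. Within miR-30c-2-3p the 21-nt leading tag had 254 and 212 reads, but the 22-nt RefSeq form had 114 and 224. Tags ending 1 base beyond the leading tag were 25.1% (21.7 to 28.9) of its reads in DMSO and 45.3% (41.2 to 49.5) in AICAR. When only tags of at least 21 nt were counted, miR-30c-2-3p had a fold change of 1.05 (0.918 to 1.21) in place of 0.896.

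Tags with 1 to 3 untemplated bases at the 3′ end are no exact match to a hairpin, and they were measured apart. miR-30a-3p and miR-30e-3p carried more of them than the other miR-30 arms. Tails of U alone were on 30.8% (27.6 to 34.1) of miR-30a-3p reads in DMSO and 35.9% (33.2 to 38.7) in AICAR, counted over templated and tailed reads. In miR-30e-3p they were on 31.3% (27.0 to 35.9) and 42.1% (37.1 to 47.4), and the intervals do not overlap. The median over the 237 3p arms tested was 2.78% and 4.56%. miR-30b-3p had 14.5% and 17.5%, but miR-30c-1-3p had 1.55% and 0%, and miR-30c-2-3p had 0.891% and 0.707%. U tails were thus frequent in miR-30a-3p and miR-30e-3p and rare in the 3p arms of the Mir30c hairpins. The most-read tailed tags of these arms are shown with the tail in capitals.
miR-30a-3p, tailed: ctttcagtcggatgtttgcagT
miR-30e-3p, tailed: ctttcagtcggatgtttacagT
miR-30c-5p, tailed: tgtaaacatcctacactctcagctA
The first had 95 reads in DMSO and 162 in AICAR, and the second 101 and 121. A last T in place of the templated base cannot be told apart from a substitution at the last base. miR-30e-3p also had tails of A alone on 15.4% (12.3 to 19.2) of its reads in DMSO and 8.60% (6.09 to 12.0) in AICAR. Among the miR-30 5p arms, miR-30c-5p was tailed most, in 24.5% and 22.8% of its reads, and A alone was on 13.8% in both libraries. The tag shown had 43 and 87 reads. miR-30a-5p was tailed in 4.81% and 6.78%, below the medians of 6.81% and 8.70% over the 5p arms.

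**Figure D4:**
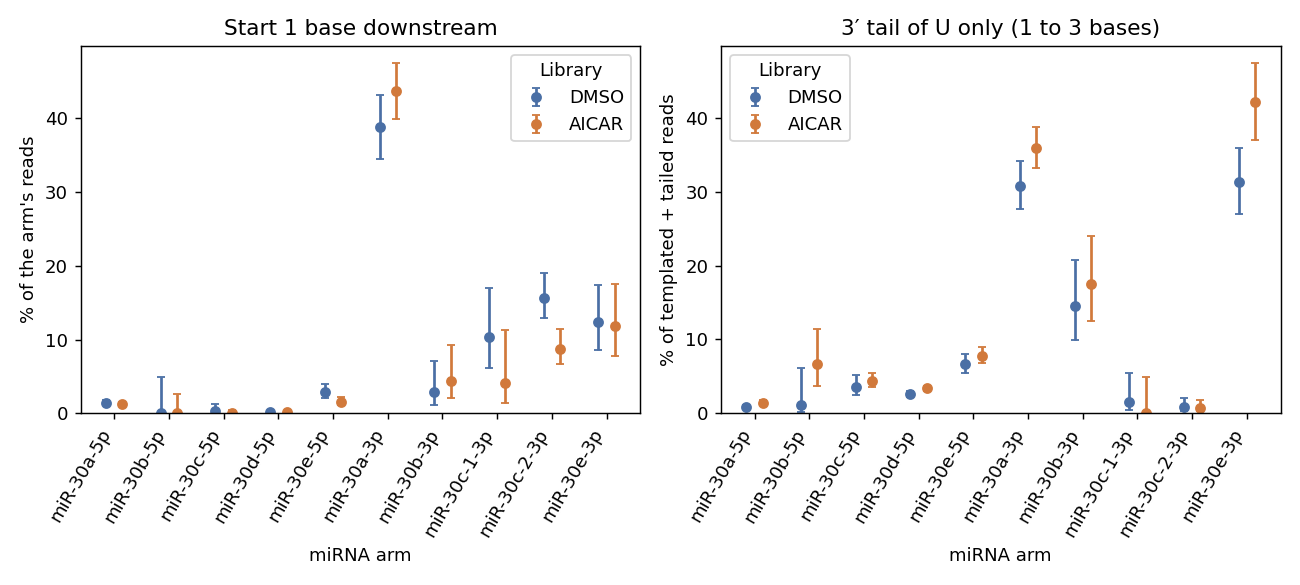
Isoforms of the miR-30 arms (horizontal axes), with 1 library per condition and bars for the 95% Wilson interval. The left panel gives the share of reads (%) that start 1 base downstream, highest in miR-30a-3p at 38.8% and 43.6%, and the right panel the share of templated and tailed reads (%) with a 3′ tail of U alone, above 30% in miR-30a-3p and miR-30e-3p.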

How the data were processed

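Small RNA of J1 cells was sequenced in 2 libraries. The authors removed low-quality and contaminant reads and deposited the count of reads of every distinct clean tag, at least 18 nt long, per library, without normalization. The submitters' processing notes name mm9, and the tables hold no alignment. Here tags were matched without mismatch to GENCODE vM21 hairpins (GRCm38). The most-read tag of an arm over both libraries was its reference tag, and tags starting within 2 nt and ending within 4 nt of it were assigned to the arm. Counts were divided by clean reads (18870345 and 21091226). Fold changes carry exact binomial, shares Wilson and odds ratios conditional exact 95% intervals. Odds ratios over all hairpins or arms had logarithmic intervals where counts were large. Arms that reached 1 RPM in either library were set against folds of 2 and 0.5, and 3 reads was the limit for a count of 0. Python 3.11.15, numpy 2.4.6 and scipy 1.17.1 were used, with edgeR 4.0.16 for TMM factors only. The code was checked on simulated libraries made of the reference tags themselves, in which 397 of 397 arms were recovered, and 0 of 20000 random tags matched. Neither count measures the accuracy of the arm counts in the real libraries.

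Every arm of the 6 hairpins is named, with arms that share a seed and genes at the loci. The members and lists were chosen with earlier results of these data known. Alternatives changed the denominator, the tag assignment and the minimum level. A search of the whole genome was not made.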

Additional observations from a re-analysis of the deposited data

Results flagged for a closer look

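Reads with 1 to 3 untemplated 3′ bases lie outside the exact matches. They came to 335 tags with 1738 reads in DMSO and 2792 in AICAR, or 92.1 and 132 RPM, a fold change of 1.44 (1.35 to 1.53), or 1.06 relative to hairpin reads. Untailed tags with 1 mismatch to a miR-30 arm came to 142 tags with 105 and 154 reads, or 5.56 and 7.30 RPM, a fold change of 1.31 (1.02 to 1.70), or 0.965 relative to hairpin reads. Both were picked out because they are signals in data outside the main measurement, above the limit for a count of 0.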

How the results depend on the processing

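Relative to hairpin reads, 4 fold changes turned below 1: the family total (0.957), miR-30d-5p (0.884), miR-30e-5p (0.957) and miR-30a-3p (0.909). By construction this denominator multiplies every fold change by 0.735. The family total was 1.22 with TMM, 1.19 with median-ratio scaling and 1.36 from reference tags only. Fold changes of single arms also depended on the tags counted. From reference tags only, miR-30a-5p was at 1.79 (1.69 to 1.90) and miR-30e-5p at 1.42 (1.31 to 1.55). In the same setting miR-30c-2-3p was at 0.747 (0.619 to 0.900) and miR-30b-3p at 1.01 (0.765 to 1.34). The number of miR-30 arms at or below 0.5 was 1 under each of the other 3 denominators, against 0 with clean reads. For all arms this share was counted with clean reads only. The 3p odds ratio from reference tags only was 0.659 for Mir30a, 0.366 for Mir30c and 0.621 for the family. It was 0.517 for Mir30c from tags of at least 21 nt, and 0.754 for the family with tailed tags counted. The cause of these changes was not tested. The 3p odds ratios of Mir30a, Mir30b, Mir30c and Mir30e stayed below 1 under each of the 5 tag assignments tried. Dividing tags that fit several miRNAs could change nothing, since no tag fitted more than 1 miR-30 arm. No paired analysis was possible because each condition has 1 library, which gives fewer than 2 pairs, and no test was made. Depth limits miR-30b, miR-30c-1-3p and miR-30d-3p most, the last with 1 read in all.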

Other observations

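Other miRNAs with the miR-30 seeds were scarce in these cells. Mir384, whose 5p arm has the seed of the miR-30 5p arms in RefSeq, had no read in either library. miR-6958-5p, which has the seed of the Mir30c 3p arms, had 11 reads in DMSO and 7 in AICAR, a fold change of 0.569 (0.187 to 1.61), and miR-7008-5p, with the same seed, had 4 and 4. Mir30f, annotated on the strand opposite Mir30e, had no read, and no tag matched the opposite strand of any miR-30 hairpin.

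Of the 133 family tags, 26 were assigned to no arm. They had 56 reads in DMSO and 37 in AICAR, a fold change of 0.591 (0.379 to 0.911). The value was 0.435 relative to hairpin reads.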
